A study of Homo sapiens with 11 samples.

Results

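The microRNA gene MIR21, the gene VMP1 that lies over it on chromosome 17, and 5 messenger RNAs named as targets of miR-21 (PDCD4, TPM1, SPRY1, SPRY2 and RECK) were followed in PC-3 tumours. They were chosen by name, and all 7 are among the 25590 genes counted in each tumour. RNA-seq had been done on 11 tumours from the human prostate cancer cell line PC-3, grown under the skin of athymic nude mice (8-week-old males, strain Crl:NU-Foxn1nu, which lack mature T cells but keep other immune cells). From day 7 the mice received intraperitoneal injections of PBS (5 tumours, numbered T123 to T127) or of A2M* (6 tumours, T128 to T132 and T112) at 5.6 mg per 20 g of body weight. A2M* is alpha2-macroglobulin, a plasma protease inhibitor, that was purified from human plasma and brought into the transformed form that binds the receptor LRP1. All tumours come from a single cell line, so the results hold for that line alone.

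miR-21 is among the microRNAs most often found at high levels in carcinomas. RNA polymerase II makes a long primary transcript, DROSHA cuts the hairpin out of it in the nucleus, DICER1 cuts the mature strand out of the hairpin, and an Argonaute protein carries that strand to messages whose 3′ UTR pairs with its seed. Paired messages are translated less and are often degraded sooner, so a lower level of the microRNA can leave more of the message. The named targets act against growth or invasion. PDCD4 blocks the translation helicase EIF4A, TPM1 steadies actin filaments, SPRY1 and SPRY2 dampen receptor tyrosine kinase signalling to ERK, and RECK is a membrane-anchored inhibitor of matrix metalloproteinases. VMP1 is a membrane protein of the endoplasmic reticulum needed to form autophagosomes.

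The sequences that define the relation are few. The mature microRNA is shown because its seed (bases 2 to 8, in capitals) names the sites that follow, and 1 other of 2545 human mature microRNAs in RefSeq (GRCh38.p14), hsa-miR-590-5p, has the same seed.
hsa-miR-21-5p: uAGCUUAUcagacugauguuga

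It occupies bases 8 to 29 of a hairpin of 72 bases at chr17:57918627-57918698 on the plus strand (GRCh37). Its full match in a 3′ UTR is the 8-letter word ATAAGCTA, which pairs with the seed and has an A opposite base 1, and the shorter form is the 7-letter word ATAAGCT that it contains. Both were searched on the strand of the message in the canonical 3′ UTR (GENCODE, GRCh37) of VMP1, PDCD4, TPM1, SPRY1 and SPRY2. PDCD4, SPRY1 and SPRY2 each held the 8-letter word once, and the 3 sites are shown with 11 bases on both sides, the matching word in capitals.
PDCD4 site, 242 bases after the stop codon of a UTR of 1918 bases, chr10:112658077-112658106, plus strand: ggaatattctaATAAGCTAccttttgtaag
SPRY1 site, 415 bases into 1204 bases, chr4:124324110-124324139, plus strand: taattgcttaaATAAGCTAtgtattaaatc
SPRY2 site, 236 bases into 782 bases, chr13:80910639-80910668, minus strand: ccatgtattgcATAAGCTAaagcaacacag

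Outside the matching word the 3 sites have different letters. Of 19064 canonical human 3′ UTRs, 2.46% held the 8-letter word and 8.73% the 7-letter word. Neither word was in the canonical 3′ UTR of TPM1 (279 bases), nor in that of any of the 19 TPM1 transcripts that have one. Neither was in the canonical 3′ UTR of VMP1 (2344 bases), though 1 of 7 VMP1 transcripts with a 3′ UTR held the 7-letter word. The 6 letters TAAGCT, which both words contain, occurred 1 time in the canonical 3′ UTR of TPM1 and 2 times in that of VMP1. A match is a description of the letters and does not show that a site is used.

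The loci of the 7 genes lie on different chromosomes, apart from MIR21 and VMP1. VMP1 spans chr17:57784553-57919616 on the plus strand, and the MIR21 hairpin lies inside an exon of it in 10 of 20 GENCODE models. In the canonical coding model the 3′ UTR runs 918 bases past the end of the hairpin. PDCD4 is at chr10:112631553-112659764 (plus), TPM1 at chr15:63334819-63364114 (plus), SPRY1 at chr4:124317950-124324915 (plus), SPRY2 at chr13:80910111-80915261 (minus) and RECK at chr9:36036910-36124452 (plus).

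The tumours held between 16958533 and 35874381 counted reads, and 3 counts, the amount below which a level is not distinguished from 0, equalled 0.0836 to 0.177 RPM (reads per 1000000 counted). The median depth was 32421291 reads in the PBS tumours and 26301439 in the A2M* tumours. The labelled cell line could be checked on its markers. All 8 epithelial and PC-3 markers were present, with medians of 245.7 RPKM for KRT8, 172.2 for EPCAM and 9393 for MSMP, while KLK3, an androgen receptor target that PC-3 lacks, had 0 counts in every tumour. RPKM is RPM divided by the exon length in kilobases. Among 13 markers of blood, vessel and connective tissue cells, 10 had a median under 1 RPKM, and their sum was 59.1 to 117.2 RPKM in PBS tumours and 59.0 to 160.4 in A2M* tumours, most of it COL1A1 (49.7 to 148.4). The paper treats the stroma of these tumours as mouse, and only reads assigned to human were counted. These marker values therefore do not measure the amount of such host cells. Their source, PC-3 cells or mouse reads assigned to human, and their part in the results below were not tested. In bulk tumours, fewer cells of a type and less RNA per cell cannot be told apart.

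Per length, VMP1 was by far the highest of these genes and RECK the lowest. Mean RPKM over the 11 tumours was 137.0 for VMP1, 71.4 for TPM1, 22.1 for SPRY1, 12.4 for PDCD4, 10.5 for SPRY2, 3.97 for MIR21 and 1.26 for RECK. VMP1 lay above 98.2% of the 22078 genes with a read, TPM1 above 95.9%, and RECK above 41.5%. The order of neighbours held in 11 of 11 tumours for VMP1 over TPM1, TPM1 over SPRY1, SPRY1 over PDCD4 and SPRY2 over MIR21. PDCD4 was above SPRY2 in 10 of 11 tumours with means 1.18-fold apart, and MIR21 was above RECK in 10 of 11. In reads MIR21 and RECK had the reverse order, with 2 to 19 per tumour on MIR21 (72 bases) and 93 to 205 on RECK (4412 bases). The plot of levels by tumour shows how tightly each gene kept its place.

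**Figure D1:**
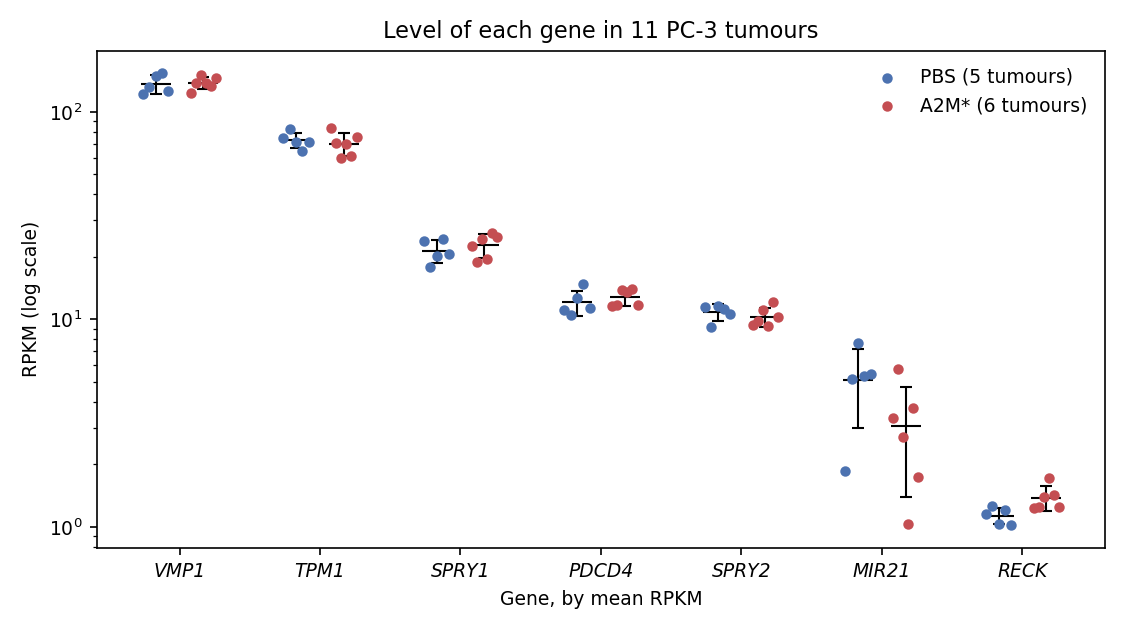
RPKM (log axis) of each of the 7 genes in the 5 PBS tumours and 6 A2M* tumours; points are tumours, and the horizontal bar and whiskers are the mean and SD of a group. The tumours of both groups overlap for every gene, and MIR21 spreads most, from 1.03 to 7.67 RPKM.

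The genes also differed in how much they varied from tumour to tumour. The coefficient of variation of RPKM over all tumours was 51.8% for MIR21 and 15.5% for RECK, against 8.14% to 12.7% for the other 5 genes. The spread within a group was set against counting error. For MIR21 the chi-square per degree of freedom against Poisson counting was 1.90 in the PBS tumours and 1.51 in the A2M* tumours, where 1 is pure counting, while for VMP1 it was 96.4 and 41.8.

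MIR21 had the fewest reads and the largest difference between the groups. The PBS tumours T123 to T127 had 4, 12, 19, 10 and 14 reads on MIR21, which is 0.133, 0.387, 0.573, 0.382 and 0.398 CPM (counts per 1000000 after TMM scaling). The A2M* tumours T128 to T132 and T112 had 8, 7, 5, 2, 6 and 4 reads, which is 0.239, 0.413, 0.190, 0.0721, 0.262 and 0.125 CPM. Of the PBS tumours, 4 of 5 lay at or above 0.382 CPM and T123 lay low. Of the A2M* tumours, T129 alone reached that range and T131 and T112 lay below every PBS tumour. The 2 reads of T131 are under the floor of 3 counts, so its level is not distinguished from 0.

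The group means were 0.374 ± 0.157 CPM (SD, n = 5) with PBS and 0.217 ± 0.119 CPM (SD, n = 6) with A2M*. In edgeR's quasi-likelihood test the log2 fold change was -0.88 (SE 0.394, 95% interval -1.73 to -0.031, unadjusted p = 0.0431), and the Benjamini-Hochberg adjusted p over 16630 genes was 0.699. It therefore did not pass the threshold of 0.01. A change of unadjusted p under 0.05 was found in 7.08% of all genes tested, 3.53% with lower values in A2M* tumours. The unadjusted p was 0.00835 without T123 and 0.0437 without T132. It was at or above 0.05 in the other 8 of 10 fits with a tumour left out (T124 to T128, T130, T131 and T112), up to 0.131 without T125. It was 0.0725 with DESeq2, 0.0811 with limma-voom and 0.0504 with library size only. In the other 4 of 7 settings it lay under 0.05. These were RLE factors (0.0429), no filter (0.0412), edgeR's exact test (0.0399) and edgeR's likelihood ratio test (0.0215).

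**Figure D2:**
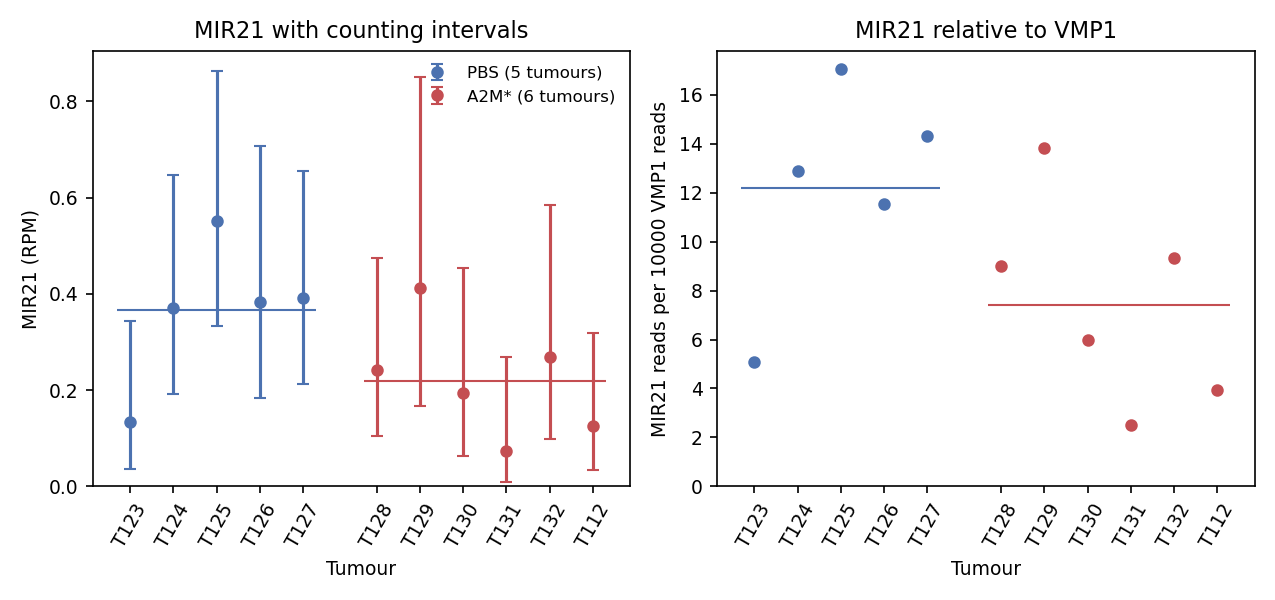
Left, MIR21 in RPM by tumour with exact 95% Poisson intervals of its count; right, MIR21 reads per 10000 VMP1 reads by tumour; horizontal lines are group means. The intervals of most tumours overlap across the groups, and T123 (PBS) and T129 (A2M*) lie away from their groups' other tumours.

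A read in the MIR21 row is not a measure of mature miR-21. The library kit sequences fragments of messenger RNA, in which a mature microRNA of 22 bases is too short to be kept, so a read there lies on longer RNA across the hairpin. The same bases belong to an exon of VMP1 in 10 of its 20 GENCODE models. The length used for VMP1 was 2174 bases, 984 fewer than the shortest coding model that covers the hairpin (3158 to 3970 bases). Which bases the counted model lacks cannot be read from its length, and neither the strand setting nor the handling of reads on overlapping genes was stated, so MIR21 counts are uncertain. MIR21 ranked 19th by total reads (91) among 1583 microRNA rows, of which 1146 had 0 reads in every tumour.

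VMP1, which holds those bases in 10 of its 20 GENCODE models, was nearly equal in both groups. Whether the counted VMP1 model holds them is not known. The PBS tumours had 261.4, 300.2, 335.8, 331.0 and 277.9 CPM in the order T123 to T127. In the A2M* tumours the lowest value was 266.2 CPM (T128) and the highest 317.6 CPM (T112). No A2M* tumour lay outside the PBS range. The log2 fold change was -0.029 (SE 0.0791, 95% interval -0.199 to 0.141, edgeR adjusted p = 0.969), with means of 301.2 ± 32.5 (SD, n = 5) and 295.3 ± 20.3 CPM (SD, n = 6).

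MIR21 was then set against VMP1 within each tumour, which removes depth and scaling. PBS tumours had 5.07, 12.9, 17.1, 11.5 and 14.3 MIR21 reads per 10000 VMP1 reads in the order T123 to T127. A2M* tumours had 8.99, 13.8, 5.98, 2.49, 9.32 and 3.94 in the order T128 to T132 and T112. The groups overlapped, with means of 12.2 ± 4.47 (SD, n = 5) and 7.42 ± 4.14 (SD, n = 6). The mean log2 ratio was lower by 0.75 in A2M* tumours (pseudocount of 0.5 reads, p = 0.132 in an exact permutation test, two-sided, whose smallest possible p is 0.00216). Leaving out T123 moved the difference to -1.01 and the exact permutation p to 0.0476, and leaving out any other tumour left p above 0.05.

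RECK was the other gene with an unadjusted p under 0.05, and it was higher with A2M*. The PBS tumours had 5.01, 5.80, 4.74, 5.27 and 4.58 CPM in the order T123 to T127. The A2M* tumours had 5.41, 5.49, 5.96, 7.39, 6.12 and 5.50 CPM in the order T128 to T132 and T112. T130, T131 and T132 lay above every PBS tumour, and the other A2M* tumours lay inside the PBS range. Means were 5.08 ± 0.482 (SD, n = 5) and 5.98 ± 0.750 CPM (SD, n = 6).

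The log2 fold change of RECK was 0.24 (SE 0.109, 95% interval 0.0033 to 0.472, edgeR unadjusted p = 0.0473, adjusted p = 0.699), so it did not pass the threshold. Higher values with A2M* at an unadjusted p under 0.05 were found in 3.55% of all genes tested. RECK is the lowest of the targets, with 93 to 205 reads per tumour. The unadjusted p was at or above 0.05 in 7 of 11 fits with a tumour left out (T123, T125 to T127 and T130 to T132), up to 0.113 without T131, where the log2 fold change was 0.17. It was 0.0579 with no filter, 0.0592 with edgeR's exact test and 0.0568 with its likelihood ratio test. In the other 5 of 8 settings it lay under 0.05. These were RLE factors (0.0483), library size only (0.0266), at least 10 counts in every tumour (0.0479), DESeq2 (0.0468) and limma-voom (0.0456).

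The other targets differed little between the groups. PDCD4 was 40.7 to 54.1 CPM with PBS and 42.4 to 50.5 CPM with A2M*, with means of 45.4 ± 5.88 (SD, n = 5) and 46.4 ± 3.60 CPM (SD, n = 6). Its log2 fold change was 0.032 (95% interval -0.155 to 0.219, edgeR adjusted p = 0.969). All 6 A2M* tumours lay inside the PBS range.

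SPRY1 was 56.5 to 73.4 CPM with PBS and 57.5 to 77.4 CPM with A2M*, with a log2 fold change of 0.054 (95% interval -0.153 to 0.262, edgeR adjusted p = 0.941). SPRY2 was 20.2 to 25.3 CPM with PBS and 18.9 to 24.8 CPM with A2M*, with a log2 fold change of -0.115 (95% interval -0.299 to 0.070, edgeR adjusted p = 0.842). T132 and T112 lay above every PBS tumour for SPRY1, and T128 and T131 below every PBS tumour for SPRY2. The 2 Sprouty genes lay on opposite sides of 0, both with intervals that include it. Both carry the 8-letter site shown above.

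TPM1, which carries no site, was 215.9 to 287.5 CPM with PBS and 195.1 to 278.5 CPM with A2M*. Means were 248.6 ± 25.5 (SD, n = 5) and 232.2 ± 31.9 CPM (SD, n = 6), and the log2 fold change was -0.098 (95% interval -0.310 to 0.114, edgeR adjusted p = 0.893). T130 and T132 lay below every PBS tumour and the other 4 inside the PBS range.

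**Figure D3:**
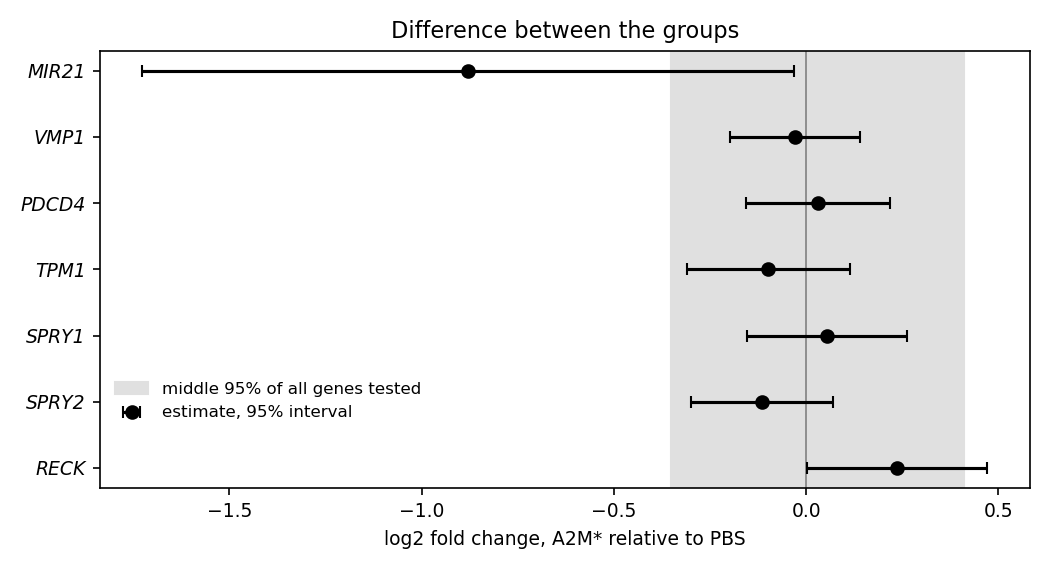
Log2 fold change, A2M* relative to PBS, of each gene with its 95% interval from edgeR's quasi-likelihood fit; the grey band holds the middle 95% of the log2 fold changes of all 16630 genes tested (-0.35 to 0.41). MIR21 has the widest interval, and the intervals of VMP1, PDCD4, TPM1, SPRY1 and SPRY2 include 0.

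None of the 7 genes was called at an adjusted p of 0.01 in edgeR's quasi-likelihood test, and over all 16630 genes tested the share called was 0%. At an unadjusted p under 0.05 there were 2 of 7, MIR21 lower and RECK higher (7.08% of all genes tested). Of the 5 targets, 3 had a log2 fold change above 0 and 2 below. The groups did not separate for any of the 7 genes, while they did for 0.71% of all genes tested. For VMP1, PDCD4, TPM1, SPRY1 and SPRY2 the intervals reach from -0.310 to 0.262 on the log2 scale, and a missed threshold does not show that the groups were alike.

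Whether MIR21 and each of the other 6 genes moved together was looked at across the 11 tumours (log2 CPM, 6 relations, 100000 permutations). For RECK, Pearson's r was -0.614 (permutation p = 0.0401, adjusted over the 6 relations 0.241) and Spearman's rho was -0.527 (permutation p = 0.0992). T131 had both the fewest MIR21 reads and the most RECK. Without T125 and T131, the tumours farthest from the median of MIR21, r was -0.125, so the relation rests on these tumours. Without T131 alone it was -0.33. Within the 5 PBS tumours r was -0.104 and within the 6 A2M* tumours -0.665, both as descriptions of few tumours.

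For the other genes r was 0.343 (VMP1, permutation p = 0.299), 0.0676 (PDCD4, permutation p = 0.843), 0.158 (TPM1, permutation p = 0.638), -0.243 (SPRY1, permutation p = 0.464) and 0.366 (SPRY2, permutation p = 0.266). Spearman's rho was 0.273, -0.00909, 0.127, -0.382 and 0.364 in the same order, with permutation p = 0.418, 0.989, 0.712, 0.246 and 0.274. Adjusted over the 6 relations, p of r lay between 0.597 and 0.843 for these 5 genes. Without T125 and T131, r was 0.146 for VMP1, 0.128 for PDCD4, 0.0572 for TPM1, -0.665 for SPRY1 and -0.227 for SPRY2. Within the 5 PBS tumours r was 0.790, 0.492, 0.0212, -0.460 and -0.00234, and within the 6 A2M* tumours -0.217, -0.264, -0.00165, -0.0258 and 0.329, in the same order. The MIR21 values behind each r rest on 2 to 19 reads, and that of T131 lies below the floor of 3 counts.

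The rest of the MIR21 neighbourhood, all genes within 250 kb, showed no gene past the threshold. RNFT1, a ubiquitin ligase gene 110903 bases from MIR21, had the smallest p of them, with 20.3 ± 1.61 CPM (SD, n = 5) in PBS tumours and 23.6 ± 1.25 CPM (SD, n = 6) in A2M* tumours. Its log2 fold change was 0.22 (SE 0.0723, edgeR unadjusted p = 0.00958, adjusted p = 0.640), and 5 of 6 A2M* tumours lay above every PBS tumour. CLTC, which encodes the clathrin heavy chain, had a log2 fold change of 0.031, PTRH2 of 0.024, DHX40 of 0.027, TUBD1 of 0.081, HEATR6 of -0.024 and RPS6KB1, the S6 kinase that marks PDCD4 for degradation, of -0.046. The lncRNA TBC1D3P1-DHX40P1 was at 0.055 and MIR4737, a microRNA row inside HEATR6, at -0.22. WFDC21P (2 to 9 reads) was too low to be tested. None of those tested here, RNFT1 and MIR21 aside, had an unadjusted p under 0.05 in edgeR's quasi-likelihood test. Of all genes tested, 7.08% had one, 3.55% with higher values in A2M* tumours.

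The proteins that make and carry microRNAs were not called either. Of 16 genes of the pathway tested, 2 were higher and 1 lower at an unadjusted p under 0.05 (3.55% and 3.53% of all genes tested), and the median log2 fold change was 0.040 (all genes: -0.0021). The groups did not overlap for 2 of the 16, DROSHA and AGO1, and for 0.71% of all genes tested. DROSHA, the nuclease that opens the primary transcript, was 91.2 ± 2.51 CPM (SD, n = 5) with PBS and 98.6 ± 2.65 CPM (SD, n = 6) with A2M*, higher in 6 of 6 A2M* tumours than in any PBS tumour (log2 fold change 0.11, SE 0.0486, edgeR adjusted p = 0.676). TNRC6C, a partner of Argonaute in silencing, was the other higher gene (0.19, edgeR unadjusted p = 0.0494). AGO2, the Argonaute that can cut its target, had a log2 fold change of -0.46 (SE 0.201, edgeR adjusted p = 0.694). AGO1 lay below the PBS range in 6 of 6 A2M* tumours with a log2 fold change of -0.12 (edgeR unadjusted p = 0.0564). The most abundant gene of the list, the RNA helicase DDX5, was at 0.036. TNRC6C and AGO1 were picked after their values were seen.

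Among 13 transcription factors said to act on MIR21, 0 were higher and 1 was lower at an unadjusted p under 0.05 (3.55% and 3.53% of all genes tested). That gene was FOS, an immediate early gene and part of AP-1, with 4.63 ± 4.29 CPM (SD, n = 5) in PBS tumours and 1.58 ± 0.477 CPM (SD, n = 6) in A2M* tumours. Its log2 fold change was -1.57 (SE 0.505, edgeR unadjusted p = 0.00781, adjusted p = 0.640), and the groups overlapped. JUN, its partner and the most abundant of the list, had a log2 fold change of 0.22 (edgeR adjusted p = 0.842). ZEB1, a transcription factor of epithelial-mesenchymal transition, was at 0.59 (edgeR adjusted p = 0.841).

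A list of 40 further reported targets of miR-21 gave a wider view, and 38 of them could be tested. None passed the threshold, 0 were higher and 1 was lower at an unadjusted p under 0.05 (3.55% and 3.53% of all genes tested). Log2 fold changes lay between -0.19 and 0.28, with a median of 0.013 against -0.0021 over all genes, and 22 were above 0. Over all genes tested, 8220 of 16630 were above 0. LRRFIP1, an RNA-binding regulator of transcription, was the lower one, with 154.5 ± 15.6 CPM (SD, n = 5) and 135.9 ± 13.8 CPM (SD, n = 6) (log2 fold change -0.19, edgeR adjusted p = 0.700). KRIT1, a protein of endothelial junctions, had the smallest p of those above 0 (0.14, edgeR adjusted p = 0.770), and the most abundant, HNRNPK, was at 0.019. The plot of these targets shows their intervals.

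**Figure D4:**
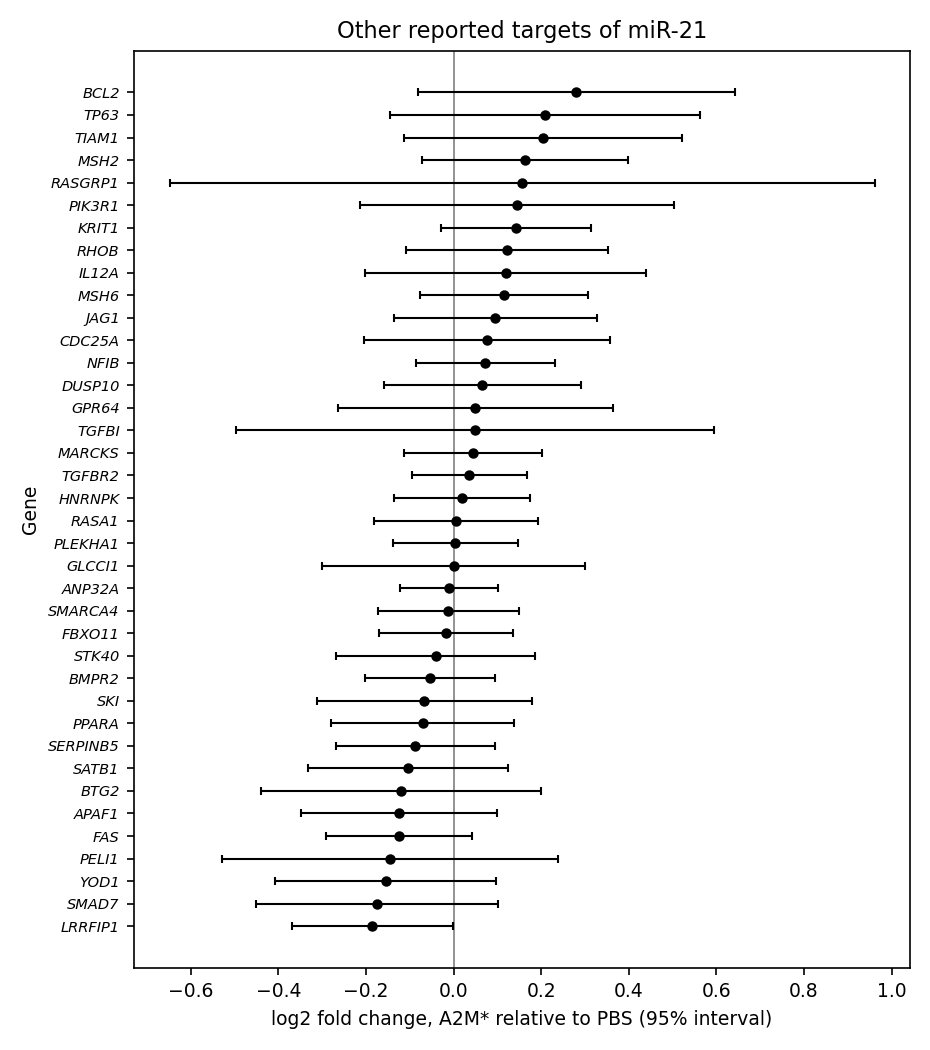
Log2 fold change, A2M* relative to PBS, with 95% intervals for the 38 further reported targets of miR-21 that could be tested, in order of their value. LRRFIP1 at the bottom is the only gene whose interval leaves out 0.

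The sites could also be counted over all messages. Of the genes tested that have a 3′ UTR in GENCODE, 378 held the 8-letter word, 927 the 7-letter word only and 12169 neither. The median log2 fold change was -0.0036, 0.014 and -0.0066, and the share above 0 was 47.9%, 54.6% and 47.9%, in that order. Among genes with a 3′ UTR of 1000 bases or more, the medians were -0.0053 with the 8-letter word (344 genes) and 0.0054 without a word (6633 genes). Messages share tumours and are not replicates, so these medians are descriptions without a test.

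**Figure D5:**
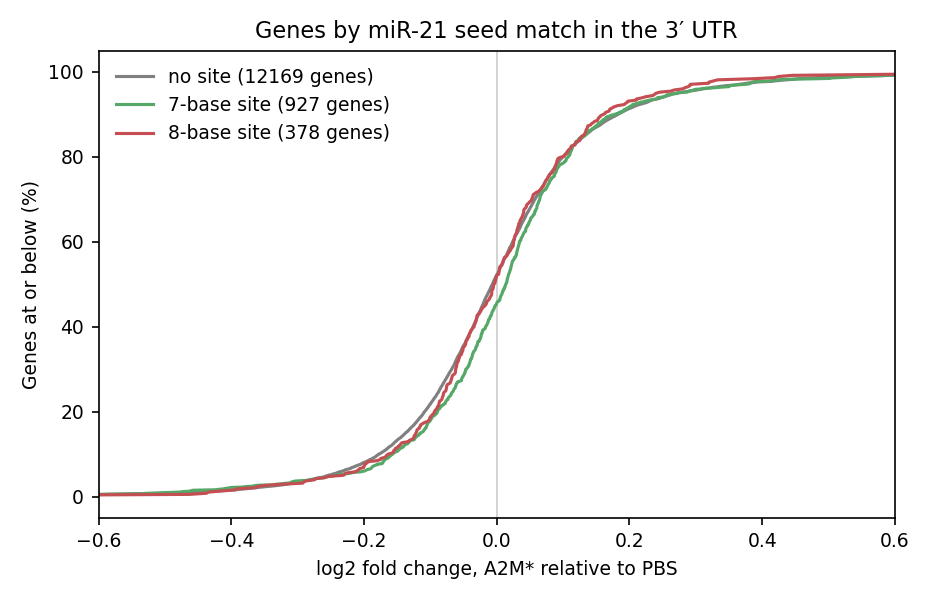
Cumulative share of genes (%) by log2 fold change, A2M* relative to PBS, for genes whose 3′ UTR holds the 8-letter match to the miR-21 seed (378 genes), the 7-letter match only (927 genes) or neither (12169 genes). The 3 curves lie close together, with medians of -0.0036, 0.014 and -0.0066.

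The genes around each member were described from lists of its pathway. Of 28 autophagy genes beside VMP1, 0 were higher and 1 was lower at an unadjusted p under 0.05 (3.55% and 3.53% of all genes tested). Their median log2 fold change was -0.018. The lower one was GABARAPL1, which coats autophagosomes (-0.16, edgeR adjusted p = 0.699). PIK3R4, a subunit of the VPS34 lipid kinase, was at 0.15, and SQSTM1, the cargo receptor and most abundant of the list, at -0.0080.

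Around PDCD4, 12 genes were tested, the EIF4 translation factors and the enzymes that degrade PDCD4. At an unadjusted p under 0.05, 1 was higher and 1 lower (3.55% and 3.53% of all genes tested). The groups did not overlap for 1 of the 12, BTRC, and for 0.71% of all genes tested. BTRC, the F-box protein that hands PDCD4 to the proteasome, was higher in 6 of 6 A2M* tumours than in any PBS tumour, at 42.7 ± 2.83 CPM (SD, n = 6) against 37.7 ± 1.81 CPM (SD, n = 5) (log2 fold change 0.18, SE 0.0649, edgeR adjusted p = 0.640). EIF4EBP1, which binds the cap factor EIF4E, was lower at 50.1 ± 5.75 CPM (SD, n = 6) against 60.5 ± 6.51 CPM (SD, n = 5) (-0.27, SE 0.0925, edgeR adjusted p = 0.640). EIF4G2 was the most abundant and stood at -0.019.

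None of 12 tropomyosin and actin genes tested and none of 13 Sprouty and Spred pathway genes had an unadjusted p under 0.05. Of all genes tested, 7.08% had one. The medians were -0.056 and 0.0024, with 9 of the 12 below 0. Over all genes tested, 8410 of 16630 were below 0. In the first list TMOD2, which caps actin filaments, was at 0.20, MYL9, the myosin light chain, at -0.19 and ACTN1 at -0.053. In the second, SPRED2 was at 0.16 and the ubiquitin ligase CBL at -0.099. The paralogs TPM2, TPM3 and TPM4 had log2 fold changes of -0.19, 0.015 and -0.088 beside TPM1, and SPRY3 and SPRY4 of 0.074 and 0.14 beside SPRY1 and SPRY2, with edgeR adjusted p between 0.842 and 0.985.

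For 10 proteases, inhibitors and signals tied to RECK, the median log2 fold change was 0.0086. At an unadjusted p under 0.05, 1 of them was higher (3.55% of all genes tested). It was WNT7B, a ligand for which RECK serves as a co-receptor, at 26.8 ± 2.61 CPM (SD, n = 5) with PBS and 33.5 ± 5.43 CPM (SD, n = 6) with A2M* (0.32, SE 0.112, edgeR adjusted p = 0.640). TIMP1, a secreted metalloproteinase inhibitor, was at -0.32 (edgeR adjusted p = 0.710). MMP14, the membrane protease that RECK inhibits and the most abundant of the list, was at 0.079.

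Markers were compared in the same way. Over all genes tested, 3.55% were higher and 3.53% lower at an unadjusted p under 0.05. At any p, 8410 of 16630 genes had a log2 fold change below 0 and 8220 above. Of 8 PC-3 markers 1 was lower at an unadjusted p under 0.05, MSMP, with a log2 fold change of -0.25 (edgeR adjusted p = 0.640), and 7 of 8 were below 0. Of the 7 blood, vessel and connective tissue markers that could be tested 1 was lower, the endothelial marker VWF, at -0.42 (edgeR adjusted p = 0.648), with 4 above 0. These are reads assigned to human and do not measure the vessels or stroma of the mouse. None of 4 luminal prostate markers tested had an unadjusted p under 0.05. MSMP and VWF were picked after their values were seen, and their part in the results above was not tested.

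The genes whose log2 CPM followed each member most closely over the 11 tumours were the highest Pearson correlations among all genes tested, so they are descriptions without a test. SDCBP (r = 0.970) and BACH1 (0.953) followed VMP1, JMY (0.968) and CASD1 (0.960) followed PDCD4, and COL4A2 (0.937) and RHOG (0.920) followed TPM1. FAM122C and SPRYD4 (both 0.914) followed SPRY1, BCAS1 (0.952) and ACBD7 (0.906) followed SPRY2, and KIAA0907 and RBMS3-AS3 (both 0.909) followed RECK. The tumours share depth and tumour content, which such correlations also follow. MIR21 had too few reads for this comparison.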

How the data were processed

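Total RNA of 11 PC-3 xenograft tumours was made into libraries with the Illumina TruSeq RNA kit and sequenced as single reads. The submitters' processing notes name bcl2fastq 1.8.4, TopHat2 and featureCounts. The authors sorted reads into human and mouse with xenome, aligned the human reads to hg19 with RefSeq genes and deposited raw counts per gene, without normalization. The authors also deposited RPM, each count divided by the tumour's total, and RPKM, which is RPM per kilobase of exon. RPM was checked and differed from the count per 1000000 by at most 4.99e-07. Strand and overlap settings are not given in the sources used here, and reads assigned to mouse were not used here.

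Tumours were grouped by the labelled treatment. Counts were filtered (filterByExpr), scaled by TMM (factors 0.958 to 1.03) and fitted in edgeR 4.0.16 (R 4.3.3), whose quasi-likelihood F test covered the 16630 genes kept, with a Benjamini-Hochberg adjusted p of 0.01 as threshold. A standard error is the log2 fold change divided by the square root of F. The biological coefficient of variation was 13.9%. Nothing says that tumours in a group came from separate mice, so p measures the spread between these samples. The steps were tested on simulated data. Poisson intervals cover counting error only.

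Ratios and relations used permutation tests (scipy 1.17.1). Seed matches were read from GENCODE 3′ UTRs on GRCh37 and the mature sequence from RefSeq. Alternatives were RLE factors, library size only, no filter, at least 10 counts in every tumour, DESeq2 1.42.0, edgeR's exact test, edgeR's likelihood ratio test, limma-voom (limma 3.58.1) and each tumour left out. Named beside the 7 genes were genes within 250 kb of MIR21, Sprouty and tropomyosin paralogs, the gene with the smallest p in each direction and the most abundant one of each list, and the 2 genes most correlated with each member that had at least 10 counts in every tumour. The genes and lists were chosen with earlier results of these data known. Seed matches in RECK, and the values of some items the study measured, are not reported here.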

Additional observations from a re-analysis of the deposited data

Results flagged for a closer look

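RECK in tumour T131 of the A2M* group stood at 7.39 CPM, while the other 5 A2M* tumours lay between 5.41 and 6.12 CPM. The gap to the nearest tumour was 0.642 of the range of the group, above Dixon's 95% critical value for 6 samples. Over 18 groups of values searched, 1 was found, where chance gives about 1 in 20 groups.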

How the results depend on the processing

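No paired analysis was possible because the groups share no tumour numbers. Genes called over the whole table numbered 0 in edgeR's quasi-likelihood fit (1178 had p under 0.05 before adjustment), 1 with DESeq2, 1 with the exact test and 1 with the likelihood ratio test of edgeR, and 0 with limma-voom. With edgeR and DESeq2 both at 0.01 or less before adjustment there were 241 of the 16630 genes tested. That count was not repeated with a tumour left out. In edgeR's quasi-likelihood fit, 0 genes were called at an adjusted p of 0.01 whichever tumour was left out. At an unadjusted p under 0.05, 2 of the 7 genes were counted (7.08% of all genes tested). Of the lists, 1 further target, 3 microRNA pathway genes, 1 transcription factor, 1 autophagy gene, 2 genes around PDCD4 and 1 around RECK were counted. Over the refits of the 7 genes 5 log2 fold changes turned the sign, all near 0. VMP1 was at 0.016 with library size only, and -0.076 to 0.013 with a tumour left out (0.013 without T125, 0.0070 without T126). PDCD4 was -0.0049 to 0.10 with a tumour left out (-0.0045 without T123, -0.0049 without T124). MIR21 kept its sign in every refit that gave a value, with adjusted p from 0.473 to 0.99995. It had no value with at least 10 counts in every tumour or without T129, since it then failed the filter. The log2 ratio of MIR21 to VMP1 was -1.01 to -0.51 with a tumour left out. For the relations with MIR21, PDCD4 had r of -0.065 with library size only, a rho of -0.0091 and -0.079 to 0.24 with a tumour left out, and TPM1 had -0.014 with library size only. SPRY1 had -0.65 to -0.12 with a tumour left out (-0.65 without T131, permutation p = 0.0436), and RECK had a rho of -0.53 and -0.76 to -0.33 with a tumour left out, -0.33 without T131 (permutation p = 0.340). The cause of these shifts was not tested. With 2 to 19 reads on MIR21 and 16958533 or more reads per tumour, counting limits what can be said of it.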
